A study of Mus musculus with 31 samples.

Results

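The comparison described here is the difference between the transcriptional responses of 2 genotypes to estradiol in the uterus. It is the response to 17β-estradiol (E2) in AF2 KO mice, meaning E2 minus placebo, less the same response in AF2 WT mice. Its members are the 15 samples that GEO's labels assign to the AF2 line, of 31 samples in the series, with 1 array a sample. They form 4 groups: AF2 KO given E2 (3 arrays), AF2 KO given placebo (4), AF2 WT given E2 (4) and AF2 WT given placebo (4). All were uteri of C57BL6/J mice whose ovaries were removed at the age of 4 weeks and which, 3 weeks later, were injected under the skin with castor oil that held 8 µg/kg of E2 or none, 6 h before collection. The other 16 samples are the MISS line, on C57BL6/N, with the same 4 combinations of genotype and treatment. The labels do not say whether each array is 1 animal, so p-values measure the spread between these samples. They do not describe the alleles either: from knowledge outside the labels, AF2 KO is a germline mutation in all cells, and the protein is still made.

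Estrogen receptor α (ERα, gene Esr1) is a nuclear receptor that binds DNA or other DNA-bound factors and switches genes on or off when estradiol occupies it. Activation function 2 (AF-2) is the surface of its ligand-binding domain that hormone folds into shape and on which coactivators dock. The AF2 KO receptor lacks it, but keeps the amino-terminal activation function 1, the DNA-binding domain and hormone binding. In the uterus of a mouse without ovaries, a single injection of estradiol is known for an early wave of transcription, water uptake and protein synthesis within hours, ahead of epithelial cell division about a day later.

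Levels below are log2 of the array's processed intensity minus the 75th percentile of that array, and responses and differences are log2 fold changes. A negative difference means that E2 moved the gene less upward, or more downward, in AF2 KO than in AF2 WT. Calls rest on a limma model over 27060 genes, at an adjusted p (Benjamini-Hochberg) under 0.05, and errors of changes are standard errors (SE) of that model. Of these genes, 22947 were well above background on all 15 AF2 arrays, which is what "measured on all arrays" means below. The 75th percentile ranged over 474.7 to 787.1 intensity units on the AF2 arrays, and 65.8% to 77.6% of probes were well above background. Precision is limited by how many arrays there are. The AF2 arrays lie on 4 slides scanned on 1 date, and slides 1, 3 and 4 each hold 1 array of every group, while slide 2 holds no AF2 KO E2 array.

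Esr1 itself was measured by 4 probes, which disagreed. The brightest, at chr10:5343056-5343115 (mm9, minus strand), read 2.80, 3.04 and 2.97 in AF2 KO E2, and 3.06, 2.88, 2.97 and 2.90 in AF2 KO placebo, against 3.03, 3.14, 3.06 and 3.65 in AF2 WT E2 and 3.43, 3.54, 3.24 and 3.46 in AF2 WT placebo. All 4 KO placebo arrays lay below all 4 WT placebo arrays, and the difference of responses was 0.18 ± 0.18 (SE; limma adjusted p = 0.421). The probe at chr10:5379218-5379277 read -1.31 to -0.999 on all 7 KO arrays and -0.0819 to 0.675 on all 8 WT arrays, with no overlap; KO minus WT was -1.28 ± 0.15 under E2 (limma adjusted p = 4.91e-08) and -1.75 ± 0.14 under placebo (limma adjusted p = 1.25e-08). The labels do not say which bases the mutation removes, and whether any probe covers them was not tested. Only the probe shown here passed the test of the difference of responses, at -0.68 ± 0.14 (limma adjusted p = 0.000243), with a response of -0.14 in AF2 KO and 0.54 in AF2 WT; it lies at chr10:5489352-5489411 (mm9, minus strand) and its letters are those of the array annotation.
Esr1 probe: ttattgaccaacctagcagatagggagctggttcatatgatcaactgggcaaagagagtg

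The difference of responses was called for 14055 genes, 51.9% of those tested: 6209 negative (22.9%) and 7846 positive (29%). Among genes measured on all arrays, 5966 were called negative (26%) and 6183 positive (26.9%). Called differences of at least 2-fold numbered 2876 negative and 3248 positive in that set, and 167 negative and 129 positive reached 8-fold. For 10008 of the 22947 genes the 95% confidence interval of the difference lay within 2-fold in both directions. Behind these counts stand unequal responses of the 2 genotypes. E2 raised 846 genes (3.13%) and lowered 150 (0.554%) in AF2 KO, against 7467 raised (27.6%) and 8131 lowered (30%) in AF2 WT. The median difference over all genes was 0.18, and moved to 0.038 with quantile normalization and to 0.024 in the values the authors deposited; differences near these sizes are near the median of all genes.

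**Figure D1:**
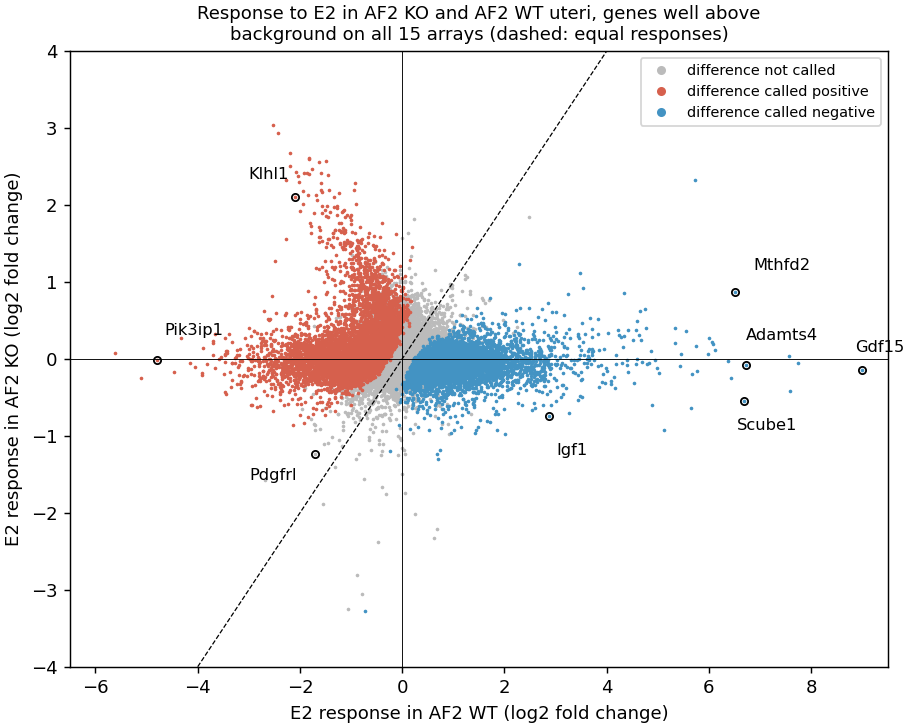
Response to E2 in AF2 KO (vertical axis) against the response in AF2 WT (horizontal axis), both as log2 fold change, for the 22947 genes measured on all 15 arrays; each dot is a gene, coloured by whether the difference of responses was called. Most called genes lie along the horizontal line of no response in AF2 KO, with Gdf15 at -0.14 in AF2 KO and 9.0 in AF2 WT, and a smaller arm with Klhl1 rises in AF2 KO where it falls in AF2 WT.

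The most negative difference among genes measured on all arrays was that of Gdf15, a secreted stress hormone of the TGF-beta family. Its level was -4.20, -2.78 and -4.64 in AF2 KO E2 and -3.74, -4.14, -3.32 and -3.72 in AF2 KO placebo, against 5.34, 4.96, 5.55 and 4.83 in AF2 WT E2 and -4.02, -3.84, -4.15 and -3.31 in AF2 WT placebo. The 4 WT E2 arrays stood apart from the other 11, which overlapped each other. The difference was -9.14 ± 0.42 (limma adjusted p = 5.32e-15), and within slides 1, 3 and 4 it was -9.82, -9.16 and -9.06 (probe chr8:73153293-73153352, mm9). Adamts4, a protease that cuts the proteoglycans aggrecan and versican, read -0.36, -0.20 and -0.69 in AF2 KO E2 and -0.68 to -0.07 in AF2 KO placebo, against 6.34, 6.00, 6.07 and 5.45 in AF2 WT E2 and -0.93 to -0.38 in AF2 WT placebo. Its difference was -6.80 ± 0.43 (limma adjusted p = 1.63e-12). Scube1, a secreted and membrane-bound glycoprotein, had -7.22 ± 0.59, with the widest scatter in AF2 KO E2 (-2.89, -1.28 and -3.33) against 4.94 to 5.09 in AF2 WT E2.

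The other 12 of the 15 most negative named genes ranged between -6.69 and -5.58, and the E2 response in AF2 KO was called for none of the 15. Over all genes that response was called higher for 3.13% and lower for 0.554%, so none of 15 is near the share. The ranking also favours genes that E2 raised in AF2 WT. The 12 include Myh7, a myosin heavy chain (-6.69 ± 0.31), Chac1, which degrades glutathione (-6.39 ± 0.36), Aqp8, a water channel (-5.93 ± 0.39), Has1, a hyaluronan synthase (-5.89 ± 0.47), and Krt81, a hair keratin (-5.58 ± 0.24). Slc6a13 (-6.29) carries GABA and taurine, and Mthfd2 (-5.64 ± 0.42) is a mitochondrial folate enzyme. Klk1, Egfbp2, Klk1b5 and Klk1b26, at -6.0 to -5.73, are tissue kallikreins of nearly identical sequence, so their probes may share signal and they count as uncertain single values. The probes of Egfbp2 (chr7:51272277-51272336) and Klk1b26 (chr7:51272272-51272331, mm9) overlap in position, so they are not separate readings. Klk1 was also lower in AF2 KO than in AF2 WT under placebo, by -2.23 ± 0.17 (limma adjusted p = 6.39e-09). Klk1b26 (-1.89), Egfbp2 (-1.73) and Klk1b5 (-1.67) were called lower there too. Myh7 was higher in AF2 KO under placebo, by 1.03 ± 0.21 (limma adjusted p = 0.00208). The rest of the 15 were not called under placebo.

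The genes of the amino acid stress response, targets of the transcription factor Atf4, had the lowest median of the 26 pathway lists: -3.0 over 26 members tested, with 24 called negative, none positive, and a median response of -0.0189 in AF2 KO against 2.89 in AF2 WT. Over all genes 22.9% were called negative. Asns, asparagine synthetase, differed by -4.10, Psat1 of serine synthesis by -3.76, the amino acid carriers Slc7a5 and Slc7a1 by -3.68 and -3.64, the pseudokinase Trib3 by -3.50 and Atf4 itself by -2.86. Pycr1, a proline synthesis enzyme, was called lower after E2 in AF2 KO (-1.31) and higher in AF2 WT (3.42). The 2 members not called were Ddit4 (-0.29) and Slc1a4 (0.02). The medians within slides 1, 3 and 4 were -3.08, -3.05 and -2.95.

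Of the cytosolic tRNA synthetases, which charge tRNAs with amino acids, 19 of 20 were called negative, with a median of -1.80. Over all genes the share called negative was 22.9%. Aars, for alanine, read 2.35, 2.05 and 1.71 in AF2 KO E2 and 2.29, 2.45, 2.15 and 2.05 in AF2 KO placebo, against 6.25, 6.04, 6.02 and 5.65 in AF2 WT E2 and 2.31, 2.12, 2.01 and 1.85 in AF2 WT placebo. Only WT E2 stood apart, and the difference was -4.11 ± 0.27 (limma adjusted p = 3.17e-12). Yars followed at -3.45, Iars at -2.97 ± 0.13 and Gars at -2.28 ± 0.33, down to Dars at -0.63. Qars, at -0.11 ± 0.12 (limma adjusted p = 0.476), was the member not called; its response was -0.09 in AF2 KO and 0.03 in AF2 WT.

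Promoters of these genes are shown because an Atf4-type element, the amino acid response element TGATGNAAT, was searched in them on both strands. It was found in 3 of 13 tRNA synthetase windows (23.1%: Aars, Gars and Iars) and in 3 of 29 windows of the Atf4 target list (10.3%: Fgf21, Nupr1 and Pycr1). The share was 0.547% of 17374 windows of tested genes and 0.965% of all 32851 RefSeq promoter windows of 300 bases. Among genes measured on all arrays it was in 15 of 2334 windows (0.643%) of those called at -1 or less. For those called at 1 or more it was in 8 of 1994 (0.401%), so both sets lay near the share of tested genes. The other pathway lists held it in 1 window each, for Nrip1, Il13ra2, Bmp5 and Cyp19a1, or in none. The consensus estrogen response element GGTCANNNTGACC was in 0.046% of windows of tested genes and 0.07% of all windows, in 1 of 2334 windows of genes called with a difference of -1 or less (0.0428%) and in 1 of 1994 of those with 1 or more (0.0502%), both sets measured on all arrays. A single arm of it, GGTCA, which the full element contains, was in 39% of windows of tested genes, 40.5% of all windows, 41.9% of the negative and 38.3% of the positive set. These matches are descriptions of letters in a window and not evidence of binding. In the sequences (RefSeq, GRCm38.p6, each from 250 bases before to 50 after a start site), capitals mark the TGATGNAAT match, which reads as ATTNCATCA on the opposite strand. The windows are chr8:111033592-111033891 (plus strand) for Aars, chr6:55037751-55038050 (plus) for Gars, chr13:49681880-49682179 (plus) for Iars and chr7:45615441-45615740 (minus) for Fgf21.
Aars promoter: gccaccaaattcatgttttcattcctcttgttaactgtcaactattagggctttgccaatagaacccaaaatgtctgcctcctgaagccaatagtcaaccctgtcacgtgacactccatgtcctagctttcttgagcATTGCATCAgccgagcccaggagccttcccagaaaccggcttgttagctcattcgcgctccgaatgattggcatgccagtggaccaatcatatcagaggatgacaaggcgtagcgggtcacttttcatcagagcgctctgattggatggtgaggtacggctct
Gars promoter: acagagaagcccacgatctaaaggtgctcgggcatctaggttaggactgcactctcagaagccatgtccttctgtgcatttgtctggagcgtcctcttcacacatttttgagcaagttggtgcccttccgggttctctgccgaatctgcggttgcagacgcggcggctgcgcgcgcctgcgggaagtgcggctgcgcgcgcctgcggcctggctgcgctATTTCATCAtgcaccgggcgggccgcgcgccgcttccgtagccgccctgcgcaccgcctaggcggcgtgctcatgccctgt
Iars promoter: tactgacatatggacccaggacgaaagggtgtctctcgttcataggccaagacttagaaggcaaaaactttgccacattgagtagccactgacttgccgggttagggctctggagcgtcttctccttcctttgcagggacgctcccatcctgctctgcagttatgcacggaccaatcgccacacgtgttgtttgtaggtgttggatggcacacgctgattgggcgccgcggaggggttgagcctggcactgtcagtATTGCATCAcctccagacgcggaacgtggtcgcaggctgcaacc
Fgf21 promoter: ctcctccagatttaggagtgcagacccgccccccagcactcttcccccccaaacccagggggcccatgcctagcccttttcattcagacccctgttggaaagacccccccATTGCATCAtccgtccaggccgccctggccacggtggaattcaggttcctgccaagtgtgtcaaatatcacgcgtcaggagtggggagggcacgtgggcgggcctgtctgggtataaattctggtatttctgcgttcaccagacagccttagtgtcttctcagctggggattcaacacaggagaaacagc

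Fgf21, a circulating metabolic hormone, was well above background on all 4 AF2 WT E2 arrays and on no other AF2 array. It read -7.99, -8.42 and -7.95 in AF2 KO E2 and -8.43 to -7.21 in AF2 KO placebo, against -1.55, -1.60, -0.60 and -1.27 in AF2 WT E2 and -8.21 to -7.53 in AF2 WT placebo. Against the dimmest measurable signal of each array, AF2 WT E2 was at least 31.5-fold higher than AF2 KO E2 (limma adjusted p = 5.49e-17) and at least 22.8-fold higher than AF2 WT placebo (limma adjusted p = 1.9e-17). These p-values, like those beside later folds given as "at least", test the measured levels and not the bound. Grin2c, a glutamate receptor subunit, had the same detection and was at least 14.8-fold higher in AF2 WT E2 than in AF2 KO E2. Krt87, a hair keratin, averaged -6.32 ± 0.58 in AF2 KO E2 (SD, n = 3) and -6.51 ± 0.66 in AF2 KO placebo (SD, n = 4), against 1.73 ± 0.10 in AF2 WT E2 and -6.30 ± 0.33 in AF2 WT placebo (SD, n = 4 each). It was measured on 1, 1, 4 and 1 arrays of these groups. Lrtm2 was measured on no AF2 KO array, on 4 AF2 WT E2 arrays and on 1 AF2 WT placebo array, and was at least 83.5-fold higher in AF2 WT E2 than in AF2 KO E2 (limma adjusted p = 3.77e-15). Dbh, dopamine beta-hydroxylase, differed by -5.54 and was measured on 2 of 3 AF2 KO E2 arrays and on all others. Among the AF2 groups, Fgf21, Grin2c, Krt87 and Lrtm2 passed the filter on dim probes only through AF2 WT E2. Their low p-values follow partly from that filter.

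**Figure D2:**
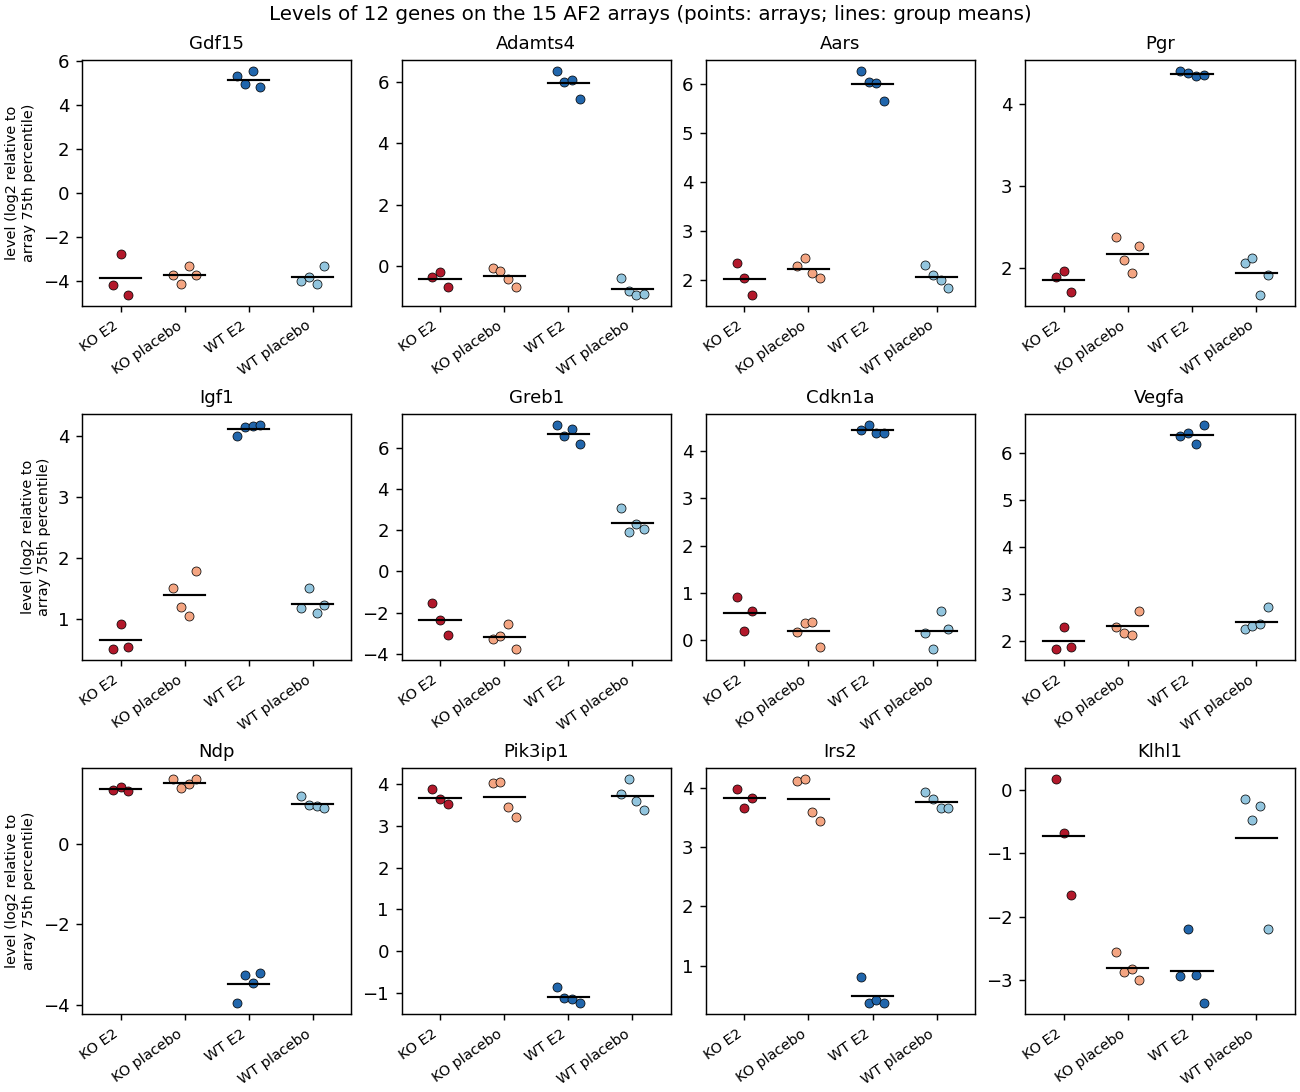
Level of 12 genes (log2 relative to the array's 75th percentile, scale differing by panel) on each AF2 array, in the order KO E2, KO placebo, WT E2 and WT placebo; points are arrays and lines group means. For Gdf15, Adamts4, Aars, Pgr, Igf1, Cdkn1a and Vegfa the WT E2 arrays alone are high, for Ndp, Pik3ip1 and Irs2 they alone are low, Greb1 is lower on both sets of KO arrays, and Klhl1 is high in KO E2 and on 3 of 4 WT placebo arrays.

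Genes of ribosome, sterol and nucleotide synthesis were mostly called negative, where 22.9% of all genes were called negative and 29% positive. All 26 ribosome biogenesis genes tested were called negative, with a median of -1.93 and within-slide medians of -1.99, -1.86 and -1.99. Rrp12, a ribosome export factor, differed by -3.96, with a level of -3.36 to -3.26 in AF2 KO E2 against 0.82 to 1.22 in AF2 WT E2; the RNA methyltransferases Nop2 and Fbl differed by -2.86 and -1.18, and the nucleolar chaperone Npm1 least, by -0.35. Of 20 cholesterol synthesis genes 16 were called negative and none positive (median -1.89): Cyp51 by -3.41, Idi1 by -3.08 and Sqle by -3.06. Mvk, Pmvk, Dhcr7 and Nsdhl were not called, at 0.26, 0.07, -0.01 and -0.19. Purine and pyrimidine synthesis had 13 negative and 2 positive calls of 18 (median -0.91). Nme1 (-2.64), Ctps (-2.61) and Umps (-2.17) were the most negative, and Cad (0.66) and Prps2 (0.68) were called positive, calls that were each lost in 10 of 24 alternative settings.

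Chaperones followed the same direction. Of 19 heat shock genes 17 were called negative and none positive (median -1.48), from Hsph1 (-2.79) and Hspa4 (-2.42) to the abundant cytosolic Hsp90ab1 (-0.40). Of 20 chaperone and unfolded protein genes of the endoplasmic reticulum 16 were called negative and none positive (median -0.91). Hspa5, the major chaperone there, read 4.41, 4.73 and 4.45 in AF2 KO E2 and 4.17 to 4.48 in AF2 KO placebo, against 6.26, 6.71, 6.30 and 6.10 in AF2 WT E2 and 4.26 to 4.70 in AF2 WT placebo. Its difference was -1.70 ± 0.17 (limma adjusted p = 8.61e-09). Creld2, Dnajb11 and Manf were at -1.85, -1.85 and -1.84, whereas Pdia4 (0.35), Sel1l (-0.06) and Dnajb9 (-0.15) were not called. Over the 7 lists from the Atf4 targets to the chaperones, the E2 response of AF2 KO was called for 2 genes, Pycr1 and the purine enzyme Adsl (-0.39), which were picked out after their values were seen. Over all genes that response was called higher for 3.13% and lower for 0.554%.

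**Figure D3:**
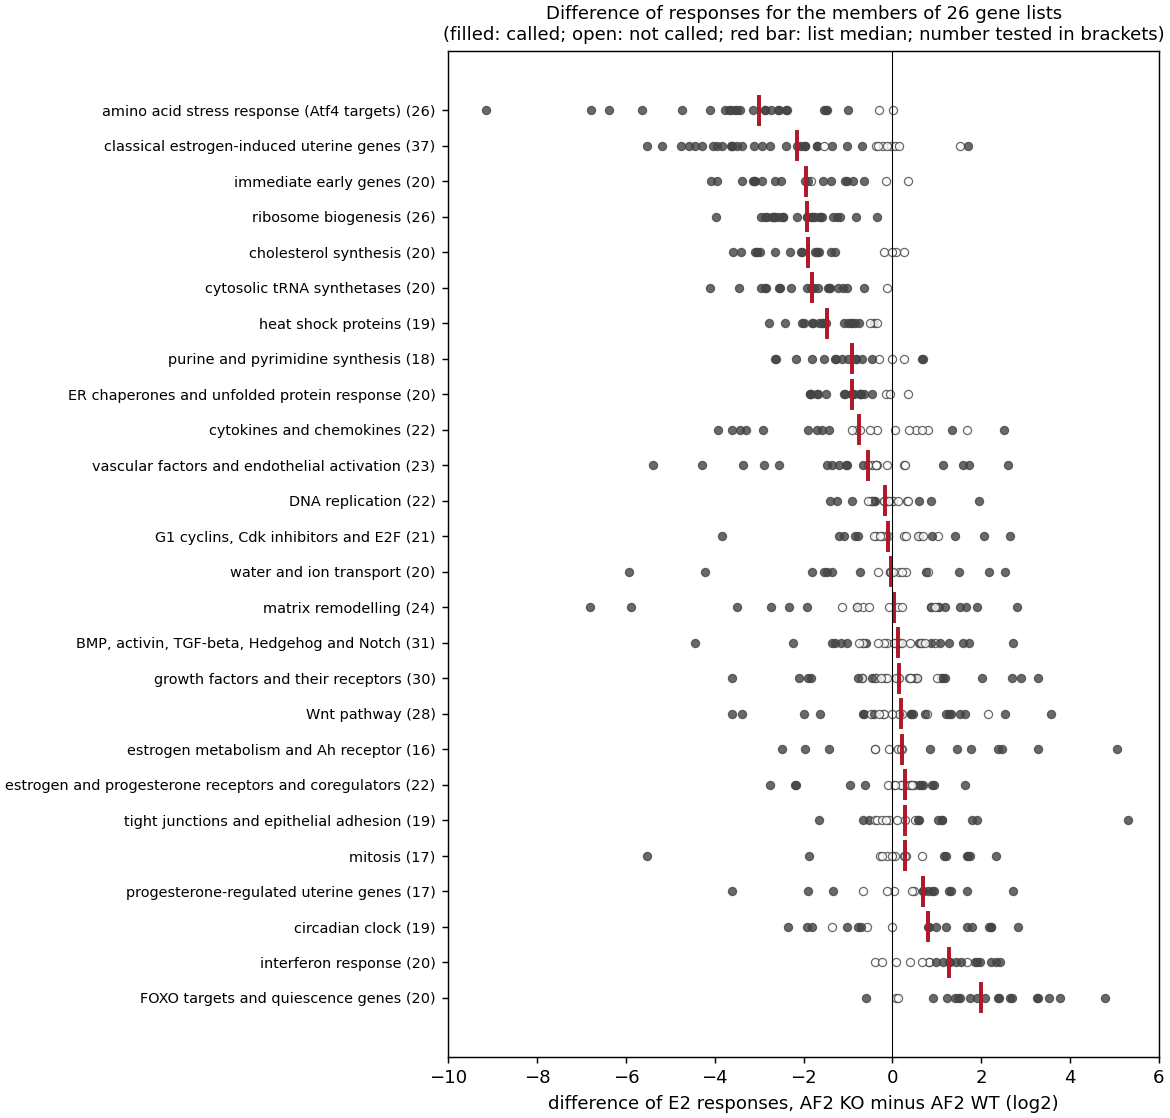
Difference of E2 responses (AF2 KO minus AF2 WT, log2) of each tested member of 26 pathway lists; filled points were called, open points were not, and the red bar is the list median. All 26 ribosome biogenesis genes lie left of 0, while 17 of 20 FOXO and quiescence genes were called positive.

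Textbook estrogen-induced uterine genes had 27 negative calls and 1 positive call of 37 tested, with a median difference of -2.14. Over all genes, 22.9% were called negative and 29% positive. The median response was 0.11 in AF2 KO and 2.31 in AF2 WT. Pgr, the progesterone receptor, read 1.89, 1.96 and 1.70 in AF2 KO E2 and 2.38, 2.10, 1.93 and 2.27 in AF2 KO placebo, against 4.40, 4.38, 4.34 and 4.35 in AF2 WT E2 and 2.06, 2.12, 1.67 and 1.91 in AF2 WT placebo. WT E2 did not overlap the other groups, and the difference was -2.75 ± 0.16 (limma adjusted p = 5.42e-13; probe chr9:8968492-8968551, mm9). Mad2l1, a spindle checkpoint protein, differed by -5.53 ± 0.20, the Cdk inhibitor Cdkn1a by -3.85 ± 0.26, Ramp3, a calcitonin-family receptor partner, by -5.19, and Inhbb, an activin subunit, by -4.43. Myc differed by -1.03 ± 0.14, with a response of 0.16 in AF2 KO and 1.19 in AF2 WT.

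Greb1, an ERα target and cofactor, differed between genotypes before any E2 was given. It read -1.54, -2.38 and -3.10 in AF2 KO E2 and -3.28, -3.14, -2.58 and -3.76 in AF2 KO placebo, against 7.09, 6.57, 6.89 and 6.17 in AF2 WT E2 and 3.09, 1.91, 2.32 and 2.04 in AF2 WT placebo. Every KO array lay below every WT array: under placebo KO minus WT was -5.53 ± 0.45 (limma adjusted p = 1.28e-08), and the difference of responses was -3.49 ± 0.66 (limma adjusted p = 8.02e-05). The E2 response was 0.85 ± 0.48 in AF2 KO, not called (limma adjusted p = 0.388), and 4.34 ± 0.45 in AF2 WT. Of this list, Greb1 included, 9 genes were lower and 2 higher in AF2 KO than in AF2 WT under placebo, where 1533 of all genes were lower (5.67%) and 913 higher (3.37%). Ltf, lactoferrin, was lower in AF2 KO under placebo by -2.30 ± 0.46 (limma adjusted p = 0.00166), and Calb1, a calcium-binding protein, was higher by 2.31 ± 0.44 (limma adjusted p = 0.000968).

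Exceptions stood in the same list. Calb1 was the positive call, at 1.70 ± 0.65 (limma adjusted p = 0.0299; lost in 6 of 24 alternative settings, up to 0.157), with a response of -1.14 in AF2 WT (limma adjusted p = 0.0276) and 0.55, not called, in AF2 KO. Ltf read 1.16, 3.41 and 1.27 in AF2 KO E2 and 0.12, 0.43, 1.29 and -0.57 in AF2 KO placebo, against 2.2 to 3.35 in AF2 WT E2 and 2.22 to 3.23 in AF2 WT placebo, and its difference of 1.52 ± 0.68 was not called (limma adjusted p = 0.0655). C3 (complement, -0.33 ± 0.36, limma adjusted p = 0.466) and Ccnd1 (cyclin D1, -0.38 ± 0.23, limma adjusted p = 0.17) were not called; their 95% intervals ran over -1.06 to 0.41 and -0.85 to 0.09, and neither responded by the test in AF2 WT.

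Among receptors and coregulators of the steroid receptors, 5 were called negative and 8 positive of 22, with a median of 0.27. These counts lie near the shares over all genes, 22.9% negative and 29% positive. Besides Pgr, the negative calls included the corepressor Ncor1 (-0.62), Nrip1, a ligand-dependent corepressor (-2.18), and the methyltransferase Carm1 (-0.96). The positive calls included Gper1, a membrane estrogen-binding receptor (1.63), Nr2f2 (0.94), Hand2, a stromal factor (0.88), the glucocorticoid receptor Nr3c1 (0.64) and the coactivator Ncoa2 (0.60). The coactivators Ncoa1 (0.03), Med1 (0.20) and Ep300 (-0.10), which dock on AF-2 or its partners, were not called. Of the immediate early genes, which respond to signals without new protein synthesis, 17 of 20 were called negative and none positive (median -1.94). Fos read 0.55, 1.11 and 0.89 in AF2 KO E2 and 1.5, 1.61, 1.91 and 0.32 in AF2 KO placebo, against 3.85, 3.85, 4.58 and 4.60 in AF2 WT E2 and 0.31, 0.59, 0.16 and 1.93 in AF2 WT placebo; its difference was -3.96 ± 0.65 (limma adjusted p = 1.33e-05). Ier2 (-3.39), Atf3 (-3.14), Nr4a1 (-3.12), Egr1 (-2.94) and Junb (-2.63) were also called, while Klf6 (0.35) and Klf2 (-0.14) were not.

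Growth factors had 7 negative and 9 positive calls of 30 and a median of 0.14, near the shares over all genes (22.9% negative and 29% positive), so the counts set the list apart in neither direction. Igf1, the main uterine growth factor under estrogen, read 0.51, 0.91 and 0.54 in AF2 KO E2 and 1.51, 1.2, 1.05 and 1.79 in AF2 KO placebo, against 4.00, 4.14, 4.16 and 4.17 in AF2 WT E2 and 1.17, 1.5, 1.09 and 1.23 in AF2 WT placebo. The 3 KO E2 arrays lay below all 4 KO placebo arrays, while the 4 WT E2 arrays lay above all others. Its response was -0.74 ± 0.14 in AF2 KO (limma adjusted p = 0.00258) and 2.87 ± 0.13 in AF2 WT, which gives a difference of -3.60 ± 0.19 (limma adjusted p = 3.89e-14). The negative calls also held Hbegf (-2.11), an EGF receptor ligand, and Fgf1 (-1.84). On the positive side stood Irs2, an adaptor of the insulin and Igf1 receptors (3.29 ± 0.28), the stromal ligands Fgf10 (2.90), Hgf (2.69) and Fgf7 (1.14), and the receptor Igf1r (1.18).

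Wnt genes had 7 negative and 11 positive calls of 28 (median 0.20), against the same shares over all genes. The ligands Wnt4 and Wnt7b differed by -3.62 and -3.38 and the target Axin2 by -1.63. The ligand enhancer Rspo3 differed by 3.58 ± 0.23, with 5.07 to 5.23 in AF2 KO E2 and 4.76 to 5.45 in AF2 KO placebo, against 1.41 to 1.84 in AF2 WT E2 and 4.83 to 5.39 in AF2 WT placebo. The receptors Fzd1 (2.54) and Fzd2 (1.32) and the secreted inhibitor Sfrp2 (1.52) were also positive. Frzb, another secreted inhibitor, was called lower after E2 in AF2 KO (-1.30) and not called in AF2 WT (0.69). In the BMP, activin, Hedgehog and Notch list 7 of 31 were called negative and 8 positive (median 0.12), near the shares over all genes. Inhbb was at -4.43 and Ptch1, the Hedgehog receptor and target, at 2.71.

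Cell cycle lists had calls in both directions, where 22.9% of all genes were called negative and 29% positive. DNA replication had 6 negative and 3 positive calls of 22 (median -0.16), from the sliding clamp Pcna (-1.40) and the helicase subunit Mcm5 (-1.25) to the helicase subunit Mcm7 (0.86), called positive. Mitosis had 2 negative and 6 positive calls of 17 (median 0.29); beside Mad2l1, Birc5 was negative (-1.87), and Bub1b (2.34), Cenpa (1.74) and Ccnb1 (1.67) were positive. G1 regulators had 5 and 5 calls of 21 (median -0.10), near the shares over all genes. Cdkn1a was at -3.85 and the inhibitory Ccng2, Cdkn2c and Cdkn1b at 2.66, 2.07 and 1.41.

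Vascular genes had 11 negative and 4 positive calls of 23 (median -0.54), where 22.9% of all genes were negative and 29% positive. Vegfa, the main permeability and angiogenesis factor, read 1.84, 2.30 and 1.87 in AF2 KO E2 and 2.14 to 2.65 in AF2 KO placebo, against 6.36, 6.41, 6.18 and 6.58 in AF2 WT E2 and 2.26 to 2.73 in AF2 WT placebo. The difference was -4.29 ± 0.19 (limma adjusted p = 2.84e-15), next to -5.39 for Pgf, -2.55 for the nitric oxide synthase Nos3 and -1.47 for the receptor Kdr, while Angpt1 (2.61), Vegfd (1.73) and Vegfc (1.58) were positive. Cytokines had 9 negative and 2 positive calls of 22 (median -0.76): Ccl7 (-3.43), Ccl2 (-2.92) and Il11 (-3.30) were negative, and Il15 (2.52) and Il33 (1.33) positive. Water and ion transport had 7 and 4 of 20 (median -0.033), with the water channels Aqp8 (-5.93), Aqp5 (-4.21 ± 0.44) and Aqp3 (-1.53) negative, and Aqp1 (1.49) and Aqp11 (2.18) positive. Matrix remodelling had 7 and 7 of 24 (median 0.026), near the shares over all genes; Adamts4, Has1, Adamts9 (-3.49) and Timp1 (-2.74) stood against Mmp11 (2.81), Mmp10 (1.90) and Mmp9 (1.65).

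Named genes with positive differences include many that E2 lowered in AF2 WT with no call in AF2 KO. Pik3ip1, an inhibitor of PI3 kinase, read 3.87, 3.63 and 3.51 in AF2 KO E2 and 4.03, 4.04, 3.46 and 3.22 in AF2 KO placebo, against -0.85, -1.13, -1.14 and -1.24 in AF2 WT E2 and 3.77, 4.11, 3.6 and 3.37 in AF2 WT placebo. The WT E2 arrays lay below all others, and the difference was 4.79 ± 0.33 (limma adjusted p = 7.54e-12; probe chr11:3242107-3242166, mm9). Ndp, the Wnt-like ligand norrin, followed at 4.30 ± 0.25, and Mcf2, Tbx6, Fam13a, Lrrc17, Tmem140 and Rhebl1 ranged between 3.75 and 4.11 with no call in AF2 KO. Klhl1, Tssk5, Tdrd5, Olfr39, Trim12c and Zbtb16, the other 6 of the 15 most positive, are described with the KO responses or their own list below.

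Genes of quiescence and targets of FOXO factors, which insulin and Igf1 signalling hold out of the nucleus, had 17 positive calls and 1 negative of 20 (median 1.99; slides 1.96, 1.84 and 1.74), where 29% of all genes were called positive. Irs2 read 3.67 to 3.99 in AF2 KO E2 and 3.44 to 4.15 in AF2 KO placebo, against 0.37 to 0.80 in AF2 WT E2 and 3.66 to 3.94 in AF2 WT placebo. Sesn1 (3.52), Trp53inp1 (3.27), Txnip (2.68), Ccng2 (2.66), Foxo3 (1.47) and Cdkn1b (1.41) were positive in the same way, and Foxo1 itself was the negative call (-0.59). Zbtb16, a zinc finger repressor, had 3.77 ± 0.80 (limma adjusted p = 0.000298) with wide scatter: 2.49, 2.63 and 3.88 in AF2 KO E2 and 1.24, 1.02, 3.37 and 1.29 in AF2 KO placebo, against -0.50, -0.95, -0.51 and 0.61 in AF2 WT E2 and 3.37, 0.60, 3.59 and 1.06 in AF2 WT placebo.

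Interferon response genes had 12 positive calls and no negative of 20 (median 1.28). For this and the lists that follow here, the shares over all genes were 29% positive and 22.9% negative. Ifit2 differed by 2.43 ± 0.16, with -0.79, -0.77 and -0.57 in AF2 KO E2 and -0.82 to -0.65 in AF2 KO placebo, against -3.24 to -2.77 in AF2 WT E2 and -0.75 to -0.31 in AF2 WT placebo. Ifit1 (2.33), Ifit3 (2.22), Oasl2 (1.97) and Rsad2 (1.90) were also called, and Mx1 (-0.40), Bst2 (-0.23), Irf9 (0.08) and Stat2 (0.39) were not. The list median was 0.17 on slide 1, and 1.48 and 1.49 on slides 3 and 4. Clock genes had 10 positive and 6 negative calls of 19 (median 0.80): Per3 (2.82 ± 0.30), Dbp (2.22), Hlf (2.22) and Nr1d1 (2.18) were positive, and Ciart (-2.35), Bhlhe40 (-1.93) and Nfil3 (-1.81) negative. Progesterone-regulated genes had 9 positive and 3 negative of 17 (median 0.69), with Ptch1, Cyp26a1 (1.67), a retinoic acid hydroxylase, Hoxa10 (1.32) and Bmp2 (1.28) positive, and Wnt4, Lif (-1.90) and Calca (-1.33) negative. Tight junction genes had 8 positive and 3 negative of 19 (median 0.28), led by Cldn1 (5.32 ± 0.74, measured on 1 of 4 AF2 WT E2 arrays and all others) and Cldn7 (-1.65). Estrogen metabolism and Ah receptor genes had 7 and 3 of 16 (median 0.21), led by Cyp1b1, which hydroxylates estradiol (5.06 ± 0.53, measured on 3 of 4 AF2 WT E2 arrays and all others), and Tiparp (-2.48).

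**Figure D4:**
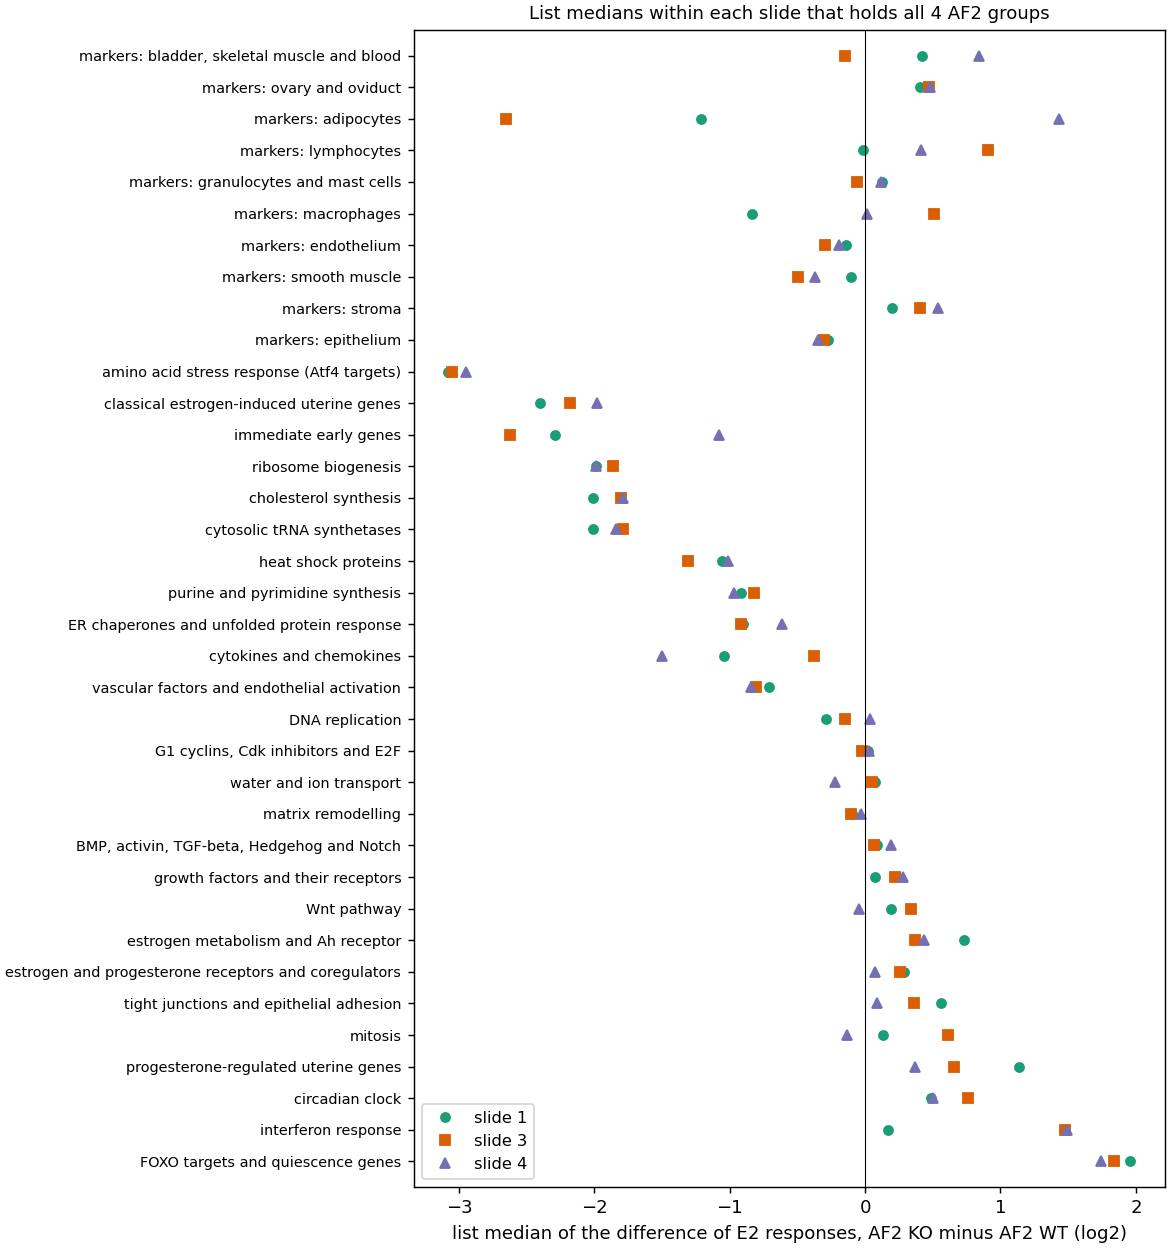
Median difference of E2 responses (AF2 KO minus AF2 WT, log2) of each list within slides 1, 3 and 4, from 1 array of each of the 4 groups; 26 pathway lists stand below 10 lists of cell type markers. The lists at both ends keep their side on all 3 slides, from -3.08 to -2.95 for Atf4 targets to 1.74 to 1.96 for FOXO and quiescence genes, while interferon genes and adipocyte markers vary between slides.

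The difference was negative on each of slides 1, 3 and 4 for 8139 of 27037 genes (30.1%) and positive on each for 11645 (43.1%). Against that, 26 of 26 ribosome biogenesis genes, 25 of 26 Atf4 targets, 19 of 20 tRNA synthetases and 28 of 37 estrogen-induced genes were negative on all 3, and 17 of 20 FOXO and quiescence genes were positive on all 3.

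The remaining E2 response in AF2 KO was called for 996 genes, against 15598 in AF2 WT. In AF2 KO 846 genes were higher (3.13% of all genes) and 150 lower (0.554%). In AF2 WT 27.6% of all genes were higher and 30% lower. Genes called in both and higher in both numbered 37, which is 3.71% of the AF2 KO calls and 0.237% of the AF2 WT calls. Lower in both were 55 (5.52% and 0.353%), higher in AF2 KO but lower in AF2 WT 498 (50% and 3.19%), and lower in AF2 KO but higher in AF2 WT 60 (6.02% and 0.385%). Among genes measured on all arrays these counts were 24, 53, 302 and 57. The count of AF2 KO calls is the least firm here: leaving out 1 array gave 239 (without AF2 KO E2 replicate 1) to 1107 genes, and without slide 1 it was 106. With slide as a block it was 2770, and the 4 shared counts became 222 higher in both, 199 lower in both, 1076 higher in AF2 KO but lower in AF2 WT and 289 the other way round. Without slide 1 limma gave 5, 0, 76 and 0, and all 106 calls in AF2 KO were higher. The call was thus lost there for each gene named above or below as lower after E2 in AF2 KO, Pycr1, Adsl and Frzb included.

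Lum, Pdgfrl, Dpt and 5 others were, among genes measured on all arrays, the 8 with the largest falls in both genotypes by the smaller of both changes. Lum, the collagen-binding lumican, read 3.36, 3.93 and 3.34 in AF2 KO E2 and 4.31, 4.27, 4.21 and 4.43 in AF2 KO placebo, against 2.76, 2.33, 2.82 and 2.63 in AF2 WT E2 and 4.40, 4.67, 4.28 and 4.58 in AF2 WT placebo. Both sets of E2 arrays lay below their placebo arrays; the response was -0.76 in AF2 KO (limma adjusted p = 0.0297) and -1.85 in AF2 WT, and the difference of 1.09 ± 0.27 was called (limma adjusted p = 0.00148). Pdgfrl, similar to a PDGF receptor, fell by 1.24 ± 0.31 in AF2 KO and by 1.71 ± 0.29 in AF2 WT, and its difference of 0.46 ± 0.42 was not called, with a 95% interval of -0.41 to 1.33. Dpt, dermatopontin, fell by 1.11 and 1.53 in the same order, and C1qtnf2, Ccdc80, Slc38a4, Actn3 and Itm2a fell by 0.72 to 1.09 in AF2 KO and by 0.97 to 1.75 in AF2 WT. Of 24 alternative settings, these 8 genes kept their call in AF2 KO in 9 (Slc38a4) to 18. Of the stroma markers, 4 of 16 were called lower after E2 in AF2 KO and 13 in AF2 WT. Over all genes 0.554% were called lower in AF2 KO and 30% in AF2 WT. The part of stroma cells in these falls was not tested. In whole tissue, fewer cells of a type and less RNA per cell cannot be told apart.

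Raised in both were Il11, a cytokine (0.51 in AF2 KO and 3.81 in AF2 WT), Ifrd1 (0.37 and 1.53), Cntf (0.37 and 0.92), Muc13, a mucin (0.46 and 0.72), Haspin (0.61 and 0.55), Plekhg3 (0.58 and 0.57), Tpbg (0.42 and 0.48) and Slc2a1, the glucose carrier GLUT1 (0.37 and 0.38). Slc2a1 read 2.2, 1.99 and 2.06 in AF2 KO E2 and 1.73, 1.58, 1.84 and 1.69 in AF2 KO placebo, against 2.01, 2.17, 2.14 and 2.33 in AF2 WT E2 and 1.72, 1.80, 1.83 and 1.78 in AF2 WT placebo. The E2 arrays of both genotypes lay above their placebo arrays, and the difference was -0.0115 ± 0.14 (95% interval -0.30 to 0.27). These responses lay close to the threshold in AF2 KO: of 24 alternative settings Slc2a1 was called there in 14, Plekhg3 in 6, Cntf in 5 and Ifrd1 in 21.

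Igf1, Col6a2, Loxl2, Sulf2, Kdelr3 and Pcsk6 were chosen in the same way among genes lower after E2 in AF2 KO and higher in AF2 WT. Col6a2, a collagen VI chain, read 2.19, 2.62 and 2.43 in AF2 KO E2 and 3.25, 3.10, 3.01 and 3.56 in AF2 KO placebo, against 4.39, 4.54, 4.42 and 4.24 in AF2 WT E2 and 2.79, 2.56, 2.54 and 2.85 in AF2 WT placebo. The groups did not overlap within either genotype, and the difference was -2.53 ± 0.28 (limma adjusted p = 3.7e-08). Loxl2, a collagen cross-linking oxidase, responded by -1.19 in AF2 KO and 0.75 in AF2 WT, Sulf2, a heparan sulfatase, by -0.88 and 1.48, Kdelr3, which returns chaperones to the endoplasmic reticulum, by -0.89 and 1.15, and Pcsk6, a proprotein convertase, by -0.92 and 1.01. In the same 24 settings the call in AF2 KO was kept in 23 for Igf1, in 17 to 19 for Col6a2, Loxl2, Sulf2 and Pcsk6, and in 8 for Kdelr3.

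In the larger set, higher in AF2 KO and lower in AF2 WT, Klhl1, Tdrd5, Tssk5, Olfr39, Trim12c and Olfr150 were chosen in the same way, and their call in AF2 KO was kept in 14 (Tssk5) to 22 (Klhl1) of the 24 settings. Klhl1, a brain actin-binding protein, read 0.17, -0.68 and -1.65 in AF2 KO E2 and -2.56, -2.88, -2.82 and -3.0 in AF2 KO placebo, against -2.94, -2.19, -2.92 and -3.36 in AF2 WT E2 and -0.14, -0.47, -0.25 and -2.19 in AF2 WT placebo; its difference was 4.19 ± 0.57 (limma adjusted p = 9.22e-07). Tssk5 (3.98 ± 0.81) and Tdrd5 (3.95 ± 0.70), both of the testis, Trim12c (3.84) and the odorant receptors Olfr39 (3.87) and Olfr150 (2.98) had the same signs. Each of these and Klhl1 was called lower in AF2 KO than in AF2 WT under placebo, from -2.19 (Tssk5) to -1.43 (Trim12c). In wild types of the MISS line E2 lowered Trim12c (-1.33, limma adjusted p = 0.00104) but raised Tdrd5 (1.30, limma adjusted p = 0.0199). Klhl1, Tssk5, Olfr39 and Olfr150 were not called there. Tmc1, of inner ear hair cells, and Slc22a22, a prostaglandin carrier, were well above background on all 3 AF2 KO E2 and all 4 AF2 WT placebo arrays and on none of the other 8. Tmc1 was at least 6.86-fold higher in AF2 KO E2 than in AF2 KO placebo (limma adjusted p = 0.00169), and at least 3.71-fold higher in AF2 WT placebo than in AF2 WT E2 (limma adjusted p = 5.32e-06). Atp13a4 was well above background on 3 AF2 KO E2 and 3 AF2 WT placebo arrays and on none of the other groups, and was at least 6.75-fold higher in AF2 KO E2 than in AF2 KO placebo (limma adjusted p = 0.0175). Slco6b1 was measured on 3 AF2 KO E2 and 1 AF2 KO placebo arrays, against 1 AF2 WT E2 and 4 AF2 WT placebo arrays, and Chst9 on all arrays but 3 of AF2 WT E2. Among the AF2 groups, Tmc1, Slc22a22 and Slco6b1 passed the filter on dim probes only through AF2 KO E2 and AF2 WT placebo. Atp13a4 passed it only through AF2 KO E2. The low p-values of these genes in the AF2 line follow partly from that filter. In wild types of the MISS line E2 raised Tmc1 (2.44, limma adjusted p = 0.000465) and Slco6b1 (2.30, limma adjusted p = 0.000888) and lowered Chst9 (-4.7). Slc22a22 and Atp13a4 were not called there.

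The 4113 genes not measured on all arrays had a median difference of 0.91, with 1663 called positive (40.4%) and 243 negative (5.91%). Their median level was -4.63, -4.76 and -4.94 in AF2 KO E2 and -5.25 to -5.13 in AF2 KO placebo, against -5.32 to -5.23 in AF2 WT E2 and -4.96 to -4.65 in AF2 WT placebo. Many of these genes passed the filter only through a group in which they were high, so these medians and counts follow partly from the filter and describe the genes that passed. The 364 odorant, taste and vomeronasal receptor genes tested had 146 positive and 9 negative calls and a median of 0.70. Over all genes 29% were called positive and 22.9% negative. The positive share of the receptor genes lay near the 40.4% of the dim genes, so it does not set them apart from these. With quantile normalization the dim genes had a median of 0.20 and the receptor genes 83 positive and 32 negative calls, and in the authors' deposited values the medians were 0.049 and 0.074. The part of this dim signal in the results for Klhl1, Tssk5, Tmc1 and the other genes of that set was not tested.

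**Figure D5:**
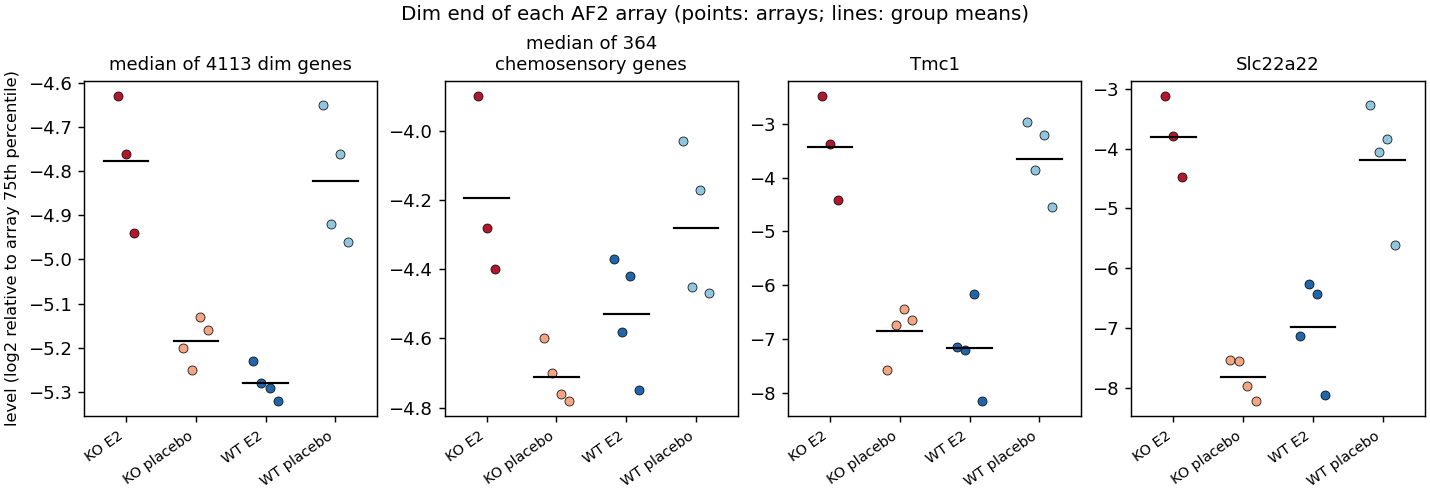
From left to right, the median level of the 4113 genes not measured on all 15 arrays, the median of 364 chemosensory receptor genes, and the levels of Tmc1 and Slc22a22 on each AF2 array (log2 relative to the array's 75th percentile); points are arrays and lines group means. KO E2 and WT placebo arrays are higher than KO placebo and WT E2 arrays for Tmc1 and Slc22a22 and in the medians of the 4113 dim genes, which follow partly from the filter on dim probes.

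Median differences of 10 lists of cell type markers lay between -0.29 and 0.55. Over all genes, 22.9% were called negative and 29% positive. Epithelial markers had 7 negative and 2 positive calls of 18 (median -0.28), and 9 were not called. Their differences ran from Elf3 (-2.57) and Krt7 (-2.21) to a highest value of 1.12. The log2 of their summed level was 8.05 to 8.4 in AF2 KO E2 and 7.83 to 8.18 in AF2 KO placebo, against 7.55 to 7.92 in AF2 WT E2 and 7.29 to 7.67 in AF2 WT placebo. Stromal markers had 1 negative and 7 positive of 16 (median 0.46), with sums of 9.19 to 9.31 and 9.53 to 9.83 in AF2 KO under E2 and placebo, and 8.65 to 8.97 and 9.30 to 9.58 in AF2 WT. Smooth muscle had 4 negative of 14 (median -0.29), endothelium 4 negative and 2 positive of 15 (median -0.14), and lymphocytes 2 positive of 14 (median 0.55). Macrophages (11 tested) and granulocytes and mast cells (11) had at most 2 calls in a direction. Adipocyte markers (10) had 1 call, positive for Slc2a4 and lost in 9 of 24 alternative settings, and medians of -1.21, -2.65 and 1.43 on slides 1, 3 and 4. Markers of ovary and oviduct (6), and of bladder, skeletal muscle and blood (7), had at most 1 call in a direction. All 18 epithelial, 16 stromal and 14 smooth muscle markers tested were well above background on all 15 arrays, and the part of cell makeup in the differences above was not tested.

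The same contrast in the MISS line called 243 genes (0.898%), against the 14055 of the AF2 line. The AF2 difference minus the MISS difference, a test of whether the genotype effect itself differed between the lines, called 10598 genes (39.2%). Strain differs between the lines as well, and cannot be told apart from line in this test. For Scube1 it was -8.96 ± 0.82 (limma adjusted p = 6.4e-09), with -7.22 in AF2 and 1.73, not called, in MISS. Gdf15 had -8.71 ± 0.59 and Chac1 -7.72 ± 0.50, while Pik3ip1 had 4.53 ± 0.45 and Igf1 -3.69 ± 0.26. In the lists, 25 of 26 ribosome biogenesis genes, 24 of 26 Atf4 targets, 19 of 20 tRNA synthetases and 15 of 20 FOXO and quiescence genes were called in this contrast; in the MISS difference alone 1 Atf4 target and 1 FOXO and quiescence gene were called among these lists.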

How the data were processed

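Uterine RNA was hybridised to 1-colour Agilent mouse arrays of 62976 spots. Per the file headers, the deposited intensity values were read and background-subtracted by Agilent Feature Extraction 10.10.1.1 and were not normalized between arrays. The authors also deposited a table of log2 values for 43753 probes with equal array medians of 7.56, used as an alternative; the submitters' processing notes name limma without a step. The deposited 0 or 1 marks gave which spots were well above background, saturated or outliers.

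Control spots and outlier spots were left out, and spots of a probe averaged. The log2 intensity minus the array's 75th percentile was tested with limma 3.58.1 (R 4.3.3; lmFit and eBayes) over 8 groups and 31 arrays, with 23 residual and 2.38 prior degrees of freedom. Of 55681 probes, 40336 passed a filter that asked for signal well above background on all arrays of 1 or more groups, and the brightest stood for each of 27060 genes. Names of 27235 probes came through an accession. P-values were Benjamini-Hochberg adjusted over all genes and called under 0.05. A fold given as "at least" sets the bright group's mean against the higher of the dim group's signal and the lowest signal well above background, array by array. The p-value beside such a fold tests the measured levels and not the bound.

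Named genes were Esr1, the 15 most negative and 15 most positive called genes measured on all arrays, the 5 most extreme each way of the others, up to 8 genes changed in the same direction and up to 6 in opposite directions in both genotypes, up to 6 each way in the contrast with MISS, the largest, opposed and smallest members of each list, and 11 well-known estrogen genes; a few genes that this rule picks are not reported here. The members and lists were chosen with earlier results of these data known. Probe positions are the array annotation's (mm9), with no mm9 gene annotation used here; promoters are RefSeq's (GRCm38.p6), and 13872 tested genes matched. The test was checked on simulated data. Alternatives were quantile normalization, normexp background correction (offset 50), the authors' log2 table, other filters on dim probes, slide as a block, AF2 arrays alone, another probe per gene, and leaving out each array.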

Additional observations from a re-analysis of the deposited data

Results flagged for a closer look

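In 6 of 111 groups of 4 arrays, over 37 genes, 1 array stood apart from its group by Dixon's test, and chance gives about 1 in 20. Scube1 was at -0.73 in AF2 WT placebo replicate 1, against -2.12 to -1.92 in the others. Myh7 was at -1.50 in AF2 KO placebo replicate 2 (others -1.32 to -1.29), and Klk1 at -4.47 in AF2 KO placebo replicate 4 (others -5.36 to -5.30). Klhl1 was at -2.19 in AF2 WT placebo replicate 4 (others -0.47 to -0.14). Pdgfrl was at 2.44 in AF2 KO placebo replicate 3 (others 3.22 to 3.36), and Dpt at 2.27 in AF2 KO placebo replicate 4 (others 1.44 to 1.48). The E2 responses of AF2 KO and AF2 WT differed by an interaction test for 14055 genes, and the AF2 and MISS differences differed for 10598 genes, both in limma with Benjamini-Hochberg adjustment.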

How the results depend on the processing

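The count of genes called in the difference of responses, 14055, ranged between 11284 (without slide 1, an alternative chosen after seeing the data) and 16889 (slide as a block), and between 12917 and 14087 when 1 array was left out. The AF2 WT response ranged over 14785 to 15716 and the AF2 minus MISS contrast over 9728 to 11012 in the same way. The genes called also changed with the scaling. Of the 14055, 11165 were called in the same direction with quantile normalization and 10964 in the authors' table. The AF2 KO response, 996 genes, depended on the setting: 643 with quantile normalization, 1672 with normexp, 633 with the strict filter, 2770 with slide as a block, 657 from the AF2 arrays alone and 106 without slide 1. Leaving out 1 array gave 239 to 1107, with 239 when AF2 KO E2 replicate 1 was dropped, 584 when replicate 2 was, and 560, 555 or 625 when AF2 KO placebo replicate 1, 2 or 4 was. The cause was not tested. Pdgfa turned to 0.02 with quantile normalization and in the authors' table, and Hsp90b1 to 0.02 in that table. With the probe of largest variance in place of the brightest, 78 genes were called in both settings with opposite signs, of 13122 called in both; that setting reads another probe. With slide 1 left out, 76 genes were higher in AF2 KO and lower in AF2 WT, against 498. AF2 arrays alone give no contrast with MISS. No paired analysis was possible because the replicate numbers follow accession order and pair no samples; slides, which hold arrays of several groups, were instead used as a block, with the counts above. Signal near background limits the dim genes, whose median moved with the scaling.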
